A study of Mus musculus with 12 samples.

Results

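The constitutive CTCF sites are the merged sites that carried a peak in every one of the 6 peak lists from embryonic brain, heart and lung of wild-type and CTCF R567W mutant mice. The unique regions of the 6 lists were merged wherever they shared at least 1 bp, and a merged site carried a list if any region of that list overlapped it. Of 56248 merged sites, 10442 (18.6%) carried all 6 lists, 7951 carried 5, 6940 carried 4, 6074 carried 3, 8622 carried 2 and 16219 carried 1. Membership was therefore chosen on the measured peak calls themselves, so presence, peak height and peak significance are given below as descriptions, and no test is made of them.

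CTCF ChIP-seq was performed on tissue from C57BL/6 embryos (C57BL/6 N in the study's methods) at E18.5, late in gestation. Wild-type embryos were set against embryos homozygous for R567W, an arginine-to-tryptophan change in a zinc finger of CTCF that was introduced with CRISPR/Cas9, and no other allele or treatment was named for either genotype. There was 1 ChIP library per tissue and genotype, so no difference between genotypes has a replicate check, and the number of animals behind each library was not given in the sources used here. Chromatin of HEK293T, a human embryonic kidney cell line, had been added to each sample as a spike-in. Peak lists carry no spike-in scaling, so the size of a change of binding that is uniform across the genome cannot be read from them.

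CTCF is a DNA-binding protein with a row of zinc fingers. Its central fingers read the core motif, whereas its last fingers contact a second, upstream motif that only a minority of sites possess. Cohesin, the ring complex that extrudes chromatin loops, is arrested at CTCF bound in 1 orientation, so loop anchors tend to carry core motifs that point toward each other. CTCF sites are shared between cell types far more than the binding sites of most transcription factors, and methylation of a CpG at some positions of the core motif weakens the binding.

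The sequences of several of these sites are shown first, because the upstream motif and the CpG of the core motif separate groups of sites in the results. Each sequence is 44 bases of the GRCm38 reference on the strand of the core motif and runs 5′ to 3′. The 14 bases of the core motif are in capitals, and so are the 9 bases that best match the upstream consensus TGCAGTNCC wherever the match has at most 2 mismatches. The first lines give the most frequent base at each position, or N where no base reached 50%, over the 10227 constitutive sites with a core motif and over the 993 of them whose upstream motif ended 8 bases before the core. In these first lines only the core motif is in capitals.
All constitutive sites with a core motif: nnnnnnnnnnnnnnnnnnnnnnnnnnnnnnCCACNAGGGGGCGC
Constitutive sites with an upstream motif 8 bases away: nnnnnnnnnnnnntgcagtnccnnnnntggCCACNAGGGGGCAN
Next come 6 strong constitutive sites, chosen by their worst rank in any list under the rule given in the processing section. Those worst ranks ran from 2 to 14. Each site is named by the gene with the nearest transcription start site.
Rapgef1 promoter, chr2:29619609-29619652, plus strand: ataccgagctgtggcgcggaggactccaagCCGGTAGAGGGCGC
Nipsnap2 promoter, chr5:129724995-129725038, minus strand: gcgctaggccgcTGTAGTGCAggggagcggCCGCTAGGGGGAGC
Exon near Gdf15, chr8:70629894-70629937, minus strand: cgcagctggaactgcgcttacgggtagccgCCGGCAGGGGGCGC
Exosc8 promoter, chr3:54735442-54735485, plus strand: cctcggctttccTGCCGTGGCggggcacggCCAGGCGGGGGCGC
Hjurp promoter, chr1:88277702-88277745, minus strand: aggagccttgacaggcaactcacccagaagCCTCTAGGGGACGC
Adprhl2 promoter, chr4:126321746-126321789, minus strand: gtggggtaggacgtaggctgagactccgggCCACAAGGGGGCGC
The next lines show constitutive sites whose pileup was lowest in the mutant relative to the wild type.
Intergenic, nearest Gm6421, chr13:117311663-117311706, minus strand: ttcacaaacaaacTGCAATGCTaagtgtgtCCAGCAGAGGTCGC
Promoter of Gm24204, chr15:80088843-80088886, minus strand: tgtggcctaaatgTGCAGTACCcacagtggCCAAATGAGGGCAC
Those whose pileup was highest in the mutant relative to the wild type are the following.
Hdlbp promoter, chr1:93478601-93478644, minus strand: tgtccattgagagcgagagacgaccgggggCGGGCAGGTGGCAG
Zfp704 promoter, chr3:9610269-9610312, minus strand: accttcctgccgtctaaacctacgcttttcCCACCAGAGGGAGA
Opa3 promoter, chr7:19227943-19227986, plus strand: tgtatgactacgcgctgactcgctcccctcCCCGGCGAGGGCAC
The last lines show strong sites that carried 5 lists and lacked only the mutant heart list.
Intergenic, nearest Gm6166, chr9:57485888-57485931, plus strand: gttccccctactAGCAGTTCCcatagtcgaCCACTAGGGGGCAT
Intergenic, nearest Coro2b, chr9:62550011-62550054, minus strand: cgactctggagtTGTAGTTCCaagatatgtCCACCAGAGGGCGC
Both sites near Gm6421 and Gm24204 held an upstream motif 8 bases before the core, with 2 and 0 mismatches, and both sites that lacked the mutant heart list held one 9 bases before the core with 1 mismatch. No upstream motif was called at the promoters of Hdlbp, Zfp704 and Opa3.

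The shortest list set the membership. Of the sites in the mutant heart list, 91.5% were constitutive, against 49.9% in the wild-type heart list, 29.4% (wild type) and 27.3% (mutant) for brain, and 23.9% (wild type) and 32.5% (mutant) for lung. Among the 7951 sites with 5 lists, the mutant heart list was the one lacking at 7190 (90.4%), the wild-type heart list at 645, and each of the other 4 lists at between 5 and 51. When the mutant heart list was not required, 17632 sites carried the remaining 5. With every list cut to the 11515 regions of the shortest by −log10 q, 5734 sites carried all 6. Each constitutive site had its weakest peak, by −log10 q, in mutant heart in 63.3% of cases and in wild-type heart in 35.3%.

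The peaks of the 6 lists lay on the same spot of DNA. The summits spanned a median of 24 bp over the 6 lists (quartiles 17 and 35 bp), and at 89.6% of the constitutive sites all 6 summits fell within 50 bp. At 301 sites (2.88%) the summits spanned over 200 bp. At sites with a core motif, the median distance from the summit to the middle of the motif was 7 bp (wild type) and 9 bp (mutant) in brain, 13 bp in both heart lists, and 6 bp (wild type) and 7 bp (mutant) in lung.

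Peak height was compared as summit pileup, the number of fragments stacked at the summit, which was recovered from each line's fold enrichment and p-value. In what follows, paired values are given as wild type against mutant. Over the constitutive sites, the median pileup was 90 against 115 in brain, 36 against 33 in heart and 160 against 129 in lung. At the other sites of each list the medians were 28 against 24 in brain, 22 against 19 in heart and 37 against 29 in lung. Constitutive sites were thus taller by their medians, although in mutant heart they were nearly the whole list. Their share of the tallest quintile was 79.1% against 84.3% in brain, 87.7% against 99.6% in heart and 77.0% against 92.0% in lung. In the lowest quintile their share was 0.783% against 0.204% in brain, 11.4% against 73.6% in heart and 0.0697% against 0.367% in lung. The tall peaks and the membership come from the same calls, so these shares describe the rule and support nothing further.

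The strongest constitutive site outside chromosome 18 was the promoter of Rapgef1, which encodes an exchange factor for Rap GTPases. Its pileup was 782 against 1181 in brain, 216 against 211 in heart and 1196 against 1228 in lung, and it ranked no lower than 2 in any list. The promoter of Nipsnap2, which encodes a mitochondrial protein, had a pileup of 570 against 1027 in brain, 171 against 183 in heart and 1043 against 977 in lung. An exonic site 2173 bp from the start of Gdf15, a stress-induced cytokine gene, had 506 against 743 in brain, 165 against 197 in heart and 922 against 952 in lung. The 3 further sites at the top of this ranking were the promoters of Exosc8 (a subunit of the RNA exosome), Hjurp (the chaperone of the centromeric histone) and Adprhl2 (an ADP-ribose hydrolase). Hjurp had 221 against 169 in heart and 1124 against 662 in lung, whereas in brain it had 808 against 977.

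At the other end, membership hung on weak heart calls. The promoter of Eif5b, a translation initiation factor gene, had a pileup of 61 against 91 in brain, 9 against 23 in heart and 132 against 93 in lung, and its −log10 q in wild-type heart was 1.33. An intronic site on chromosome 4, nearest to Mir5106, had 46 against 25 in brain, 27 against 9 in heart and 89 against 40 in lung, with a −log10 q of 1.34 in mutant heart. An intergenic site on chromosome 14, nearest to 4930432J09Rik, had 31 against 51 in brain, 8 against 9 in heart and 40 against 41 in lung. Its −log10 q was 1.39 in wild-type heart and 1.74 in mutant heart. These were the members nearest to exclusion.

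The strongest sites just outside lacked the mutant heart list and nothing else. The site near Gm6166 had a pileup of 156 and 190 in brain, 53 in wild-type heart, and 221 and 217 in lung. That near Coro2b had 118 and 220 in brain, 50 in wild-type heart, and 222 and 242 in lung. An intronic site of Gm47283 on chromosome Y had 149 and 196 in brain, 44 in wild-type heart, and 247 and 186 in lung. In brain and lung all 3 stood above the median of the constitutive sites in each of the 4 lists, and no value is available for mutant heart, where no peak was listed.

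Nearly all constitutive sites held the core motif, and the share was higher the more lists a site carried. It was found within 100 bp of the summit, at a p of 1e-04 per position, at 97.9% of the 10442 sites (Wilson 95% interval 97.7 to 98.2%), against 84.3% of the other sites (83.9 to 84.6%). The difference was 13.7 percentage points (Newcombe 95% interval 13.2 to 14.1), which covers counting error only, as do all intervals below. In windows 1.1 kb away the same matrix called a motif at 13.9% and 12.8%. Even the sites of 5 lists fell short, at 94.6% (94.1 to 95.1%), and sites of 1 list reached 74.8% (74.1 to 75.5%). The matrix had been learned from wild-type brain peaks outside the constitutive sites. The median motif score was 19.4 bits at constitutive sites, 18.02 at sites of 5 lists and 15.6 at sites of 1 list. A pair of separate core motifs, or more, each at the stricter p of 1e-05, lay within 200 bp of the summit at 5.94% of constitutive and 3.27% of other sites, a difference of 2.66 points (2.19 to 3.16). Only 215 constitutive sites had no core motif.

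**Figure D1:**
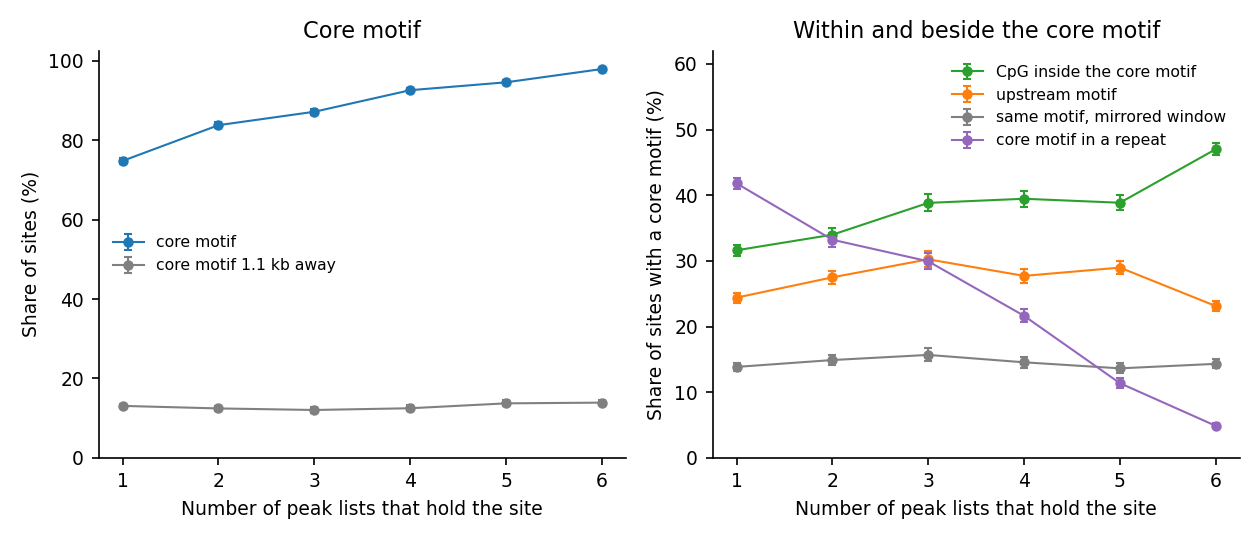
Share of merged sites with a sequence feature (y axes, percent) against the number of peak lists that hold the site (x axes). The left panel shows the core motif at the summit and 1.1 kb away, and the right panel shows features of sites with a core motif. Bars are Wilson 95% intervals. From 1 list to 6 the core motif share goes from 74.8% to 97.9%, and that of core motifs in repeats from 41.8% to 4.87%.

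Inside the core motif, constitutive sites held more CpG. A CpG lay anywhere in the 14 bases at 47.0% of constitutive sites with a core motif (46.0 to 48.0%) and at 35.8% of other sites, a difference of 11.3 points (10.2 to 12.3). It was commonest at bases 12 and 13, where 39.7% of constitutive and 28.9% of other sites held it, followed by bases 2 and 3, where the shares were 12.2% and 6.88%. Sites with a wild-type peak in all 3 tissues that lacked a mutant peak in at least 1, here called wild-type common sites, held a CpG in 37.2% of core motifs, 9.80 points fewer than constitutive sites (8.39 to 11.2). The motif score was also higher at constitutive than at wild-type common sites, with medians of 19.4 and 17.7 bits. The surrounding sequence was richer in CpG too, with a median CpG ratio of 0.317 at constitutive, 0.230 at wild-type common and 0.233 at other sites. Its mean GC content was 52.2%, 49.7% and 51.0%. Promoters made up 22.1% of constitutive and 13.1% of wild-type common sites. The parts of motif score, surrounding sequence and promoters in the CpG difference were not tested. The difference is therefore not shown to be particular to the core motif. DNA methylation was not measured in these files.

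Constitutive sites were seldom in repeats. The core motif lay in repeat-masked sequence at 4.87% of constitutive sites (4.47 to 5.30%), at 11.4% of sites of 5 lists, at 21.6% of 4, at 29.9% of 3, at 33.2% of 2 and at 41.8% of 1. Against all other sites the difference was -24.4 points (-25.0 to -23.8). Reads in repeats are harder to place uniquely, and uniquely mapped reads alone were kept by the authors, and the part of mappability was not tested.

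Next, the upstream motif was examined. It was called, on the strand of the core motif and within 30 bp of its 5′ end, at 23.1% of constitutive sites with a core motif (22.3 to 23.9%), against 14.3% in the mirrored window on the other side. Over all other sites with a core motif the share was 27.2% (26.8 to 27.7%). Wild-type common sites that lacked some mutant peak held it at 32.3% (31.4 to 33.3%), with 14.01% in the mirrored window. The constitutive sites were 9.22 points lower (-10.5 to -7.94), whereas the mirrored windows differed by 0.309 points (-0.694 to 1.31). With at most 1 mismatch the shares were 6.58% and 13.3%. At the 553 core-motif sites with all 3 wild-type lists and no mutant list, the upstream motif was called at 44.5% (40.4 to 48.7%), or at 24.2% with at most 1 mismatch.

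The shortfall was present in each class of peak height, which serves here only to sort the sites. Sites with a wild-type peak in all 3 tissues were split into deciles by their mean wild-type pileup rank, and the constitutive sites were lower in 10 of 10 deciles, by 11.2 to 21.0 points. In the strongest decile 32.2% of 1789 constitutive sites and 45.7% of 92 wild-type common sites held the upstream motif. In the weakest it was 15.2% of 204 and 26.4% of 1677. In both groups the strongest decile thus held more upstream motifs than the weakest, and the difference standardised over the deciles was -17.1 points. Without deciles it was -6.51 points (-7.84 to -5.19) among core motifs outside repeats and -9.35 points (-10.8 to -7.94) outside promoters. Of the wild-type common sites 99.3% lacked the mutant heart list, so the contrast is nearly that of a mutant heart peak called or not called. The 78.8% that lacked it alone gave -7.10 points (-8.47 to -5.74).

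**Figure D2:**
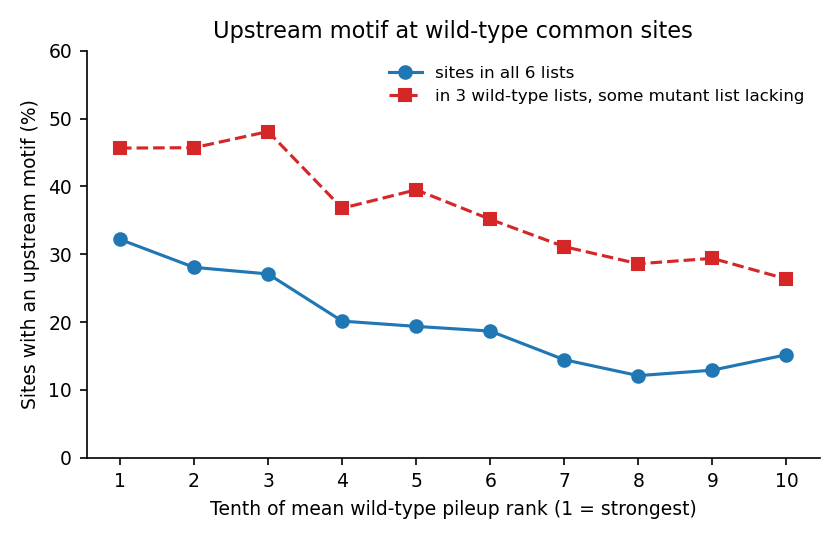
Share of sites with an upstream motif (y axis, percent) in each decile of mean wild-type pileup rank (x axis, 1 is the strongest) for constitutive sites and for wild-type common sites that lacked some mutant list. The constitutive sites are lower in all 10 deciles, and in the strongest decile the shares are 32.2% and 45.7%.

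The spacing of the upstream motif differed too. Among motifs with at most 1 mismatch, 61.2% at constitutive sites ended 8 bases before the core (57.5 to 64.8%) and 22.4% ended 9 bases before it (19.4 to 25.7%). At wild-type common sites the shares were 73.3% (70.7 to 75.8%) and 17.5% (15.4 to 19.8%). The 8-base spacing was 12.1 points rarer at constitutive sites (-16.6 to -7.64) and the 9-base spacing 4.98 points commoner (1.20 to 8.89). In the mirrored window, matches with at most 1 mismatch were called at 1.82% of constitutive and 1.59% of wild-type common sites. The upstream window gave 6.58% and 13.3%. Chance matches can fall at any spacing, and their part in the spacing difference was not tested. Against sites of 5 lists the differences were -9.42 points (-14.2 to -4.61) and 4.03 points (-0.0565 to 8.16), and the latter interval includes 0.

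The mutant was then compared with the wild type at the constitutive sites, where a peak was present in both by definition. Pileups were divided by the genome background of their list, which scales with depth. The log2 mutant-to-wild-type ratio had a median of 0.21 for brain, -0.25 for heart and -0.12 for lung, with SDs across sites of 0.58, 0.47 and 0.44. Over all sites with both peaks the medians were -0.04, -0.25 and -0.36, lower than those of the constitutive sites in brain and lung and equal in heart. These ratios come from the calls that chose the sites, and they rest on 1 library each. By the deposited fold enrichment the median in lung was 1.54 instead, since the local background under constitutive peaks reached 5.95 times that of the genome in wild-type lung, and elsewhere it ranged from 1.05 to 1.42 times.

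Few constitutive sites passed a 2-fold difference. In brain 496 sites (4.75%) were lower by 2-fold or more in the mutant, against 11.3% of all 28896 sites with both peaks, and 292 (2.80%) were higher, against 3.19%. In heart 736 (7.05%) were lower, against 7.12% of 10609 sites, and 17 (0.163%) were higher, against 0.17%. In lung 614 (5.88%) were lower, against 20.9% of 29221 sites, and 5 (0.0479%) were higher, against 0.472%. In heart nearly every site with both peaks was constitutive, so the shares there are those of the background. The lung and brain counts lie below their background in the lower direction. Constitutive sites had to keep a called peak in every mutant list, and they are themselves part of each background. These shortfalls therefore describe the rule and support nothing further. When each tissue was centered on the median of all its sites, the heart counts became 318 lower (3.05%, against 3.08% of all sites) and 90 higher (0.862%, against 0.867%). The lung counts became 234 lower (2.24%, against 11.4%) and 46 higher (0.441%, against 1.91%).

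Ratios of the 3 tissues moved together. Across the 10442 sites, Pearson's r was 0.46 between brain and heart, 0.62 between brain and lung and 0.53 between heart and lung, and these pairs share no library, although they share the sites' base composition and the selection. The ratio was below 0 in all 3 tissues at 2955 sites (28.3%) and above 0 in all 3 at 1446 (13.8%). At 122 sites (1.17%) it was at most -1 in all 3 tissues, and at 0 sites was it at least 1 in all 3. The balance of these counts depends on where each tissue's 0 is set, as the centered counts and the lung median by fold enrichment show, and the groups were formed after the values were seen.

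Sites with the upstream motif were taller by their medians in wild-type lists, whereas mutant medians were close. In brain the median pileup over background was 58.7 at the 2364 constitutive sites with an upstream motif and 51.1 at the 7863 without, and in the mutant it was 56.4 and 57.4. Heart gave 22.5 and 20.2 in the wild type and 17.2 at both groups in the mutant. Lung gave 115 and 102 in the wild type and 92.0 and 90.6 in the mutant. The quartiles overlapped throughout, with 37.6 to 65.8 for wild-type brain sites without the motif and 45.2 to 74.0 for those with it. Accordingly, the median log2 ratio was lower with the motif by 0.21 (brain), 0.10 (heart) and 0.15 (lung). Averaged over tissues the difference was -0.15 ± 0.06 (SD, n = 3 tissues). The 3 tissues with 1 library per genotype could not give an exact two-sided permutation p below 0.25, and the heights come from the calls that chose the sites, so these differences are a description.

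**Figure D3:**
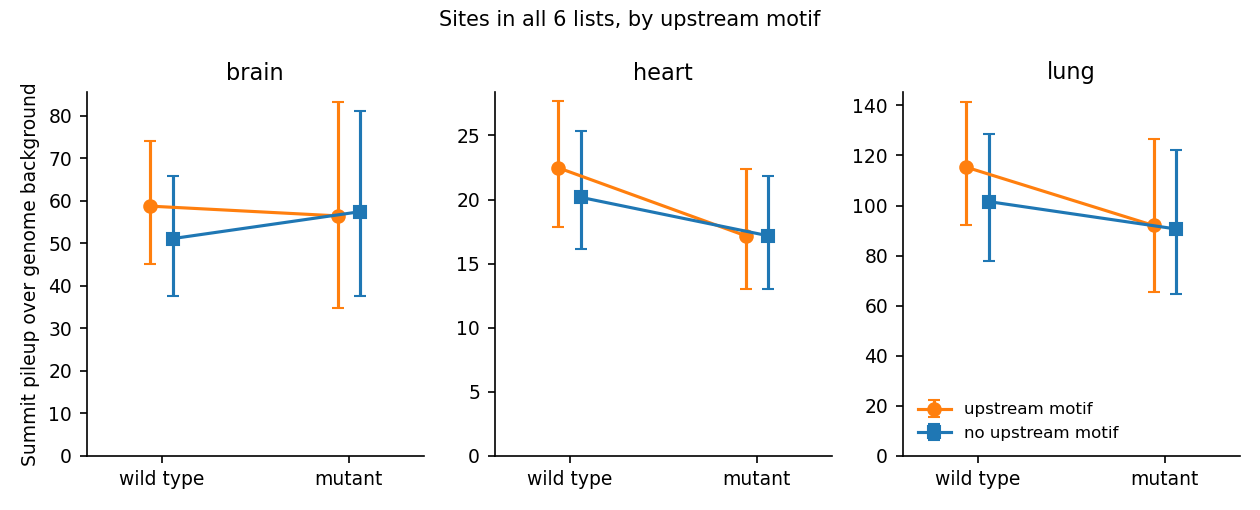
Summit pileup over genome background (y axis, ratio) at constitutive sites with and without an upstream motif, in wild-type and mutant lists of each tissue, with 1 library behind each list. Points are medians over sites and bars are quartiles. The medians are apart in the wild type (58.7 and 51.1 in brain) and close in the mutant (56.4 and 57.4 in brain).

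The difference scaled with the match. With 0 mismatches the median log2 ratio was -0.18 for brain, -0.54 for heart and -0.49 for lung (128 sites). One mismatch gave -0.07, -0.41 and -0.34 (545 sites). With 2 mismatches it was 0.10, -0.30 and -0.19 (1691 sites), with 3 it was 0.22, -0.25 and -0.11 (4255 sites), and with 4 it was 0.27, -0.22 and -0.07 (3358 sites). Each step up to 4 mismatches raised the median in every tissue. The mirrored window showed differences of -0.04, -0.0024 and -0.0078 in brain, heart and lung, and within deciles of wild-type pileup the differences with the upstream window were -0.23, -0.08 and -0.16. By fold enrichment as deposited the lung difference turned to 0.13, and the mean over tissues was -0.06.

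Among the 120 core-motif sites with a ratio of at most -1 in all 3 tissues, 51 (42.5%, 34.0 to 51.4%) held the upstream motif, against 23.1% of all constitutive sites. The site near Gm6421 on chromosome 13 had the lowest mean ratio, with a pileup of 129 against 18 in brain, 53 against 11 in heart and 189 against 37 in lung. Its log2 ratios were -3.09, -2.42 and -2.25. An exonic site near Gm24605 on chromosome 7, also with an upstream motif 8 bases from the core, had 260 against 59 in brain, 112 against 24 in heart and 450 against 63 in lung. At the promoter of Gm24204 on chromosome 15, where the upstream motif had 0 mismatches, the pileups were 177 against 40 in brain, 51 against 13 in heart and 263 against 38 in lung. All 3 sites kept a called peak in every mutant list at a fraction of the wild-type height.

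Promoters leaned the other way. The median log2 ratio at the 2304 constitutive promoters was 0.53 for brain, -0.15 for heart and 0.00 for lung, while it was 0.11, -0.28 and -0.15 at the 3776 intergenic sites. The difference between the 2 places was 0.41, 0.13 and 0.15, with a mean of 0.23 ± 0.16 (SD, n = 3 tissues). Of the 309 sites with a ratio of at least 1 in any tissue, 221 (71.5%, 66.2 to 76.3%) were promoters, against 22.1% of all constitutive sites, and as 292 of them passed in brain this is largely a brain value. The top GC quintile had medians of 0.52, -0.18 and 0.01, the middle quintile 0.06, -0.31 and -0.17, and the lowest 0.23, -0.20 and -0.13, so the ratio did not follow GC content throughout. The part of GC content was not tested. The upstream difference was present on both sides of the divide, at -0.13, -0.05 and -0.09 within promoters and -0.20, -0.11 and -0.16 outside them in brain, heart and lung.

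**Figure D4:**
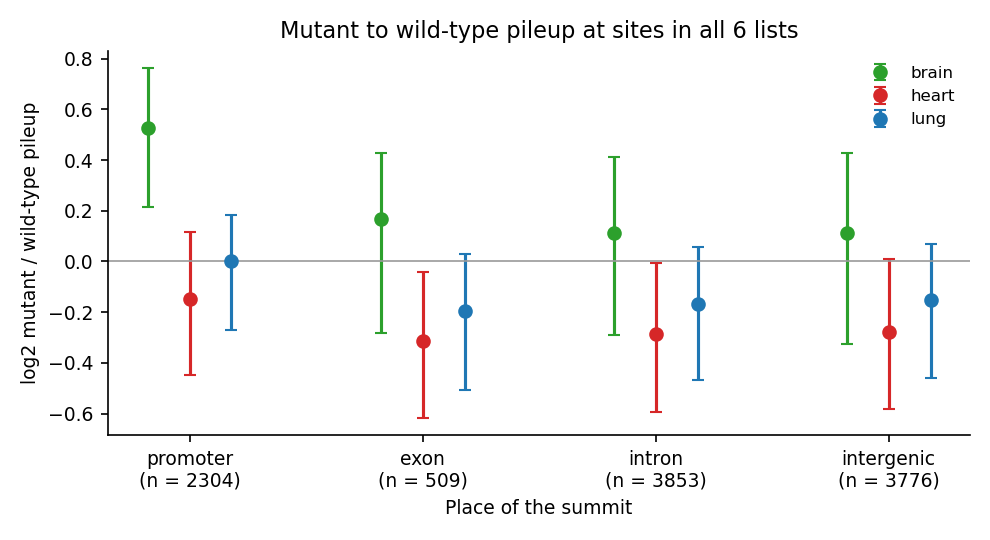
Log2 ratio of mutant to wild-type pileup (y axis) at constitutive sites by place of the summit (x axis), in brain, heart and lung. Points are medians over sites and bars are quartiles, with 1 library behind each tissue and genotype. Promoters have the highest median in each tissue, 0.53 in brain against 0.11 at intergenic sites.

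The 3 sites with the highest mean ratio were all promoters. Hdlbp, which encodes the RNA-binding protein vigilin, had a pileup of 53 against 182 in brain, 15 against 33 in heart and 81 against 168 in lung, for log2 ratios of 1.53, 0.99 and 1.15. Zfp704, a zinc-finger gene, had 42 against 121 in brain, 16 against 40 in heart and 86 against 144 in lung. Opa3, a mitochondrial gene, had 57 against 165 in brain, 14 against 31 in heart and 95 against 140 in lung. In wild-type heart each lay under the lower quartile of constitutive sites, 28.

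As to position, 22.1% of constitutive sites were promoters, within 1 kb of a transcription start site, 4.87% exonic, 36.9% intronic and 36.2% intergenic. The promoter share differed from that of other sites by 0.386 points (-0.486 to 1.27), which includes 0, but exceeded that of wild-type common sites, 13.1%, by 8.94 points (7.89 to 10.0). The intergenic share was 5.07 points above that of other sites (4.06 to 6.09) but differed by -2.01 points from that of wild-type common sites (-3.36 to -0.648). Against other sites the intronic share was 5.78 points lower (-6.81 to -4.75). Once peaks were limited to a −log10 q of at least 5, the promoter share stood 3.34 points above that of other sites (2.46 to 4.23).

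Of 21911 protein-coding genes, 9436 had any site at a promoter and 1983 (9.05%) a constitutive one. Ribosomal protein genes exceeded this, as 19 of 79 (24.1%, 16.0 to 34.5%) had a constitutive site, but they also more often had any site, at 57 of 79 promoters (72.2%, against 43.1% of all genes). Of promoters with any site, 33.3% (22.5 to 46.3%) were constitutive, against 21.0% of all genes. The count was 7 of 39 for proteasome genes (17.9%, 8.98 to 32.7%) and 2 of 20 for aminoacyl-tRNA synthetase genes (10.0%, 2.79 to 30.1%), and both intervals held the value of all genes. Rpl36, a large-subunit protein gene, had a pileup of 204 against 361 in brain, 46 against 64 in heart and 339 against 382 in lung. Psmd6, a proteasome regulatory subunit gene, had 240 against 400 in brain, 63 against 71 in heart and 398 against 346 in lung.

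The genes of CTCF and cohesin themselves were often among them, with a constitutive site at 7 of 15 promoters (46.7%, 24.8 to 69.9%), or 7 of the 10 with any site (70.0%, 39.7 to 89.2%). They were Ctcf itself, the cohesin subunit genes Smc3, Stag1 and Stag2, the acetyltransferase gene Esco1, and Pds5a and Pds5b, which regulate the release of cohesin. Stag1 had the best mean rank, with 260 against 428 in brain, 69 against 78 in heart and 390 against 437 in lung. Pds5b had 195 against 347 in brain, 45 against 55 in heart and 377 against 401 in lung.

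Genes typical of a single tissue had shares near that of all genes. A constitutive promoter site was found at 2 of 30 neuronal genes (Gad1, of GABA synthesis, and Nlgn1, a synaptic adhesion gene), 2 of 30 cardiac genes (Ryr2, the calcium release channel, and Ttn, which encodes titin) and 3 of 30 lung genes (Abca3, a surfactant lipid transporter, Muc1 and Foxj1). These shares, 6.67%, 6.67% and 10.0%, had intervals that held the 9.05% of all genes. Of 38 imprinted genes, H13 and Peg13 had one, and of 1092 olfactory receptor genes none did, which allows up to 0.351% by the Wilson interval, but only 8 of their promoters held any site. Gad1 had 99 and 209 in wild-type and mutant brain, 33 in both heart lists, and 97 and 91 in lung, and the constitutive median in wild-type brain was 90. Ttn had 35 against 29 in brain, 34 against 26 in heart and 93 against 38 in lung, below the constitutive median in each list.

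At loci known for CTCF boundaries, constitutive sites were a part of the sites present. Over all sites the share was 18.6%, and most loci held too few sites to be set apart from it. The Hoxa cluster with its flanks held 3 constitutive of 11 sites, Hoxb 2 of 13, Hoxc 1 of 5 and Hoxd 3 of 10. The strongest of the Hoxa cluster, in an intron 3099 bp from a Hoxa7 start, held an upstream motif with 0 mismatches 9 bases from the core and had a pileup of 151 against 181 in brain, 49 against 48 in heart and 251 against 267 in lung. H19-Igf2, whose imprinted expression depends on CTCF, held 3 of 7. Kcnq1-Kcnq1ot1 held 4 of 14, Dlk1-Meg3 1 of 7, alpha-globin 5 of 14 and beta-globin 0 of 3. The region from Wnt6 to Pax3, known for limb malformations after boundary loss, held 19 of 95.

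Both X-linked loci of the list held constitutive sites, 2 of 6 at Xist-Tsix and 2 of 25 at Firre, whose intronic CTCF repeats anchor the inactive X. The X chromosome as a whole was poor in them. Only 100 of 1372 X sites (7.29%, 6.03 to 8.79%) were constitutive, 11.6 points fewer than on autosomes (-12.9 to -10.0), where the share ran from 15.2% on chromosome 5 to 21.3% on chromosome 19. Per megabase there were 0.585 on the X and between 3.19 and 7.08 on the autosomes. The median pileup of constitutive sites on the X was 0.63 to 0.75 times the autosomal median over the 6 lists. In the mutant heart list a peak was present at 9.33% of X sites and 20.6% of autosomal sites, whereas in wild-type brain the shares were 62.9% and 63.2%. In wild-type lung the X had the higher share, 82.9% against 77.5%. The sex of the embryos was not given in the labels. Neither of the 2 sites on the Y was constitutive.

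The spacing and orientation of the sites were examined last. The median distance to the next constitutive site was 79.3 kb (quartiles 26.7 and 207 kb). Neighboring core motifs were called convergent where the left one lay on the plus strand and the right one on the minus strand, so that they point toward each other. Neighbors were taken within constitutive or within other sites, so sites of the other group may lie between them. Sites of 5 lists and wild-type common sites were not examined in this way, so the pattern is not shown to be particular to constitutive sites. Between neighboring constitutive sites 20 to 500 kb apart, 31.2% of 7086 pairs were convergent (30.1 to 32.3%), 26.7% divergent and 42.1% on the same strand. Between neighboring other sites at the same distances, 25.4% of 20786 pairs were convergent, 5.78 points fewer (4.56 to 7.02), 23.1% divergent and 51.4% on the same strand.

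The order turned with distance. Convergent pairs made up 9.30% of constitutive neighbors at 1 to 5 kb (7.25 to 11.9%), 14.1% at 5 to 20 kb (12.4 to 16.0%), 26.6% at 20 to 100 kb (25.2 to 28.0%) and 36.2% at 100 to 500 kb (34.6 to 37.8%). Divergent pairs made up 34.3%, 37.9%, 31.4% and 21.6% at the same distances, highest at 5 to 20 kb. Among other sites the convergent share went from 21.2% to 28.5% over the same distances, and the divergent share from 24.6% to 20.3%. The differences in convergent share were -11.9 (-14.2 to -9.08), -7.93 (-9.82 to -5.87), 2.24 (0.683 to 3.84) and 7.64 points (5.63 to 9.66). Pairs share sites with the next pair, so they are not independent, and the intervals count each pair once.

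**Figure D5:**
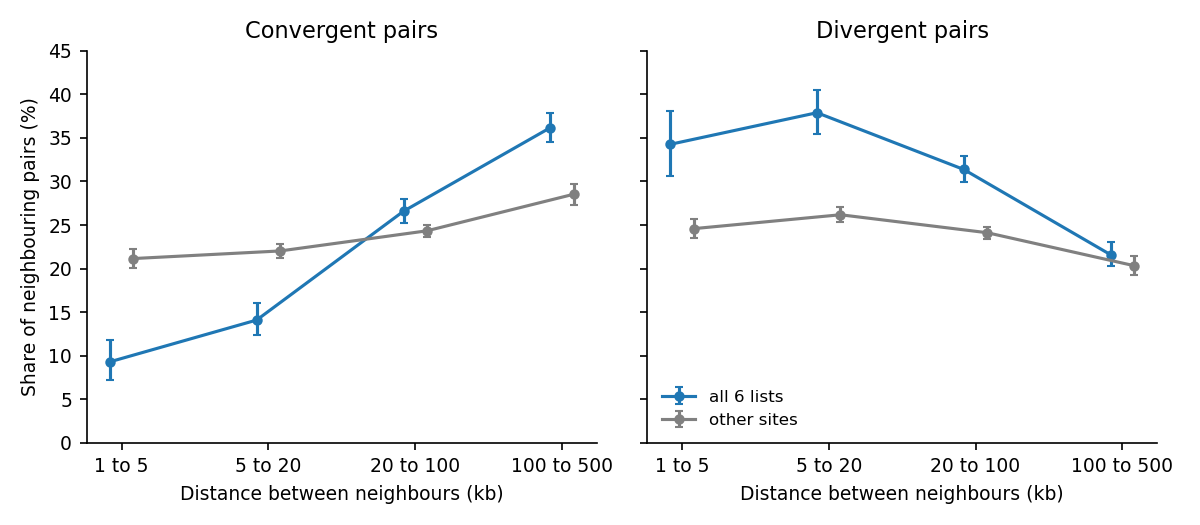
Share of neighboring pairs of core motifs (y axes, percent) that were convergent (left) or divergent (right) against the distance between them (x axes, kb), for constitutive and other sites. Bars are Wilson 95% intervals. Convergent constitutive pairs go from 9.30% at 1 to 5 kb to 36.2% at 100 to 500 kb, and divergent pairs reach 37.9% at 5 to 20 kb.

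Even among constitutive sites, height differed between tissues. After each list was centered on its median, the log2 difference between brain and lung in the wild type had a Pearson r of 0.67 with that in the mutant over the 10442 sites, between brain and heart 0.57 and between heart and lung 0.44. The libraries compared were separate, while the sites share their base composition and the selection. The wild-type lists were then used to pick sites at least 2-fold apart from both other tissues, a rule set after values were seen, and the mutant lists to look at them again. Brain was the low tissue at 220 sites, of which 214 (97.3%) were also lowest in mutant brain, against 36.0% of all constitutive sites. It was the high tissue at 12, of which 11 were highest in mutant brain, against 42.5%. Heart was the low tissue at 13 (10 in the mutant, 34.3%), and lung the high one at 3 (3 in the mutant, 28.3%). Heart was the high tissue at 48 (41 in the mutant, background 29.1%) and lung the low one at 45 (42 in the mutant, background 29.6%). A 2-fold difference was reached again in the mutant at fewer of them. For sites low in brain it was 103 of 220, against 4.32% of all constitutive sites, and for those high in brain 5 of 12, against 1.06%. For sites high in heart it was 16 of 48, against 0.881%, and for those low in heart 0 of 13, against 0.230%. For sites high in lung it was 1 of 3, against 0.182%, and for those low in lung 13 of 45, against 0.910%.

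An intron of Mb, the myoglobin gene of heart muscle, held a site with a pileup of 20 against 17 in brain, 31 against 22 in heart and 39 against 13 in lung, while the constitutive medians were 90 and 115, 36 and 33, and 160 and 129. The promoter of Ltbp2, a gene for a binding protein of latent TGF-beta, had 65 against 97 in brain, 28 against 29 in heart and 264 against 228 in lung. The promoter of Aldoa, a glycolytic enzyme gene, had 129 against 233 in brain, 19 against 29 in heart and 109 against 108 in lung. Relative to the medians, Mb stood highest in heart, Ltbp2 in lung and Aldoa in brain, in both genotypes. An intronic site nearest to Bpifb1 also stood highest in heart, with 26 against 19 in brain, 48 against 23 in heart and 76 against 29 in lung. These examples were picked after values were seen. Whether such sites lie near genes typical of their tissue was not tested.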

How the data were processed

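CTCF ChIP-seq peak lists of 6 libraries (3 tissues, 2 genotypes, 1 library each) were analyzed, and the 6 input libraries were not used here. Per the submitters' processing notes, which also name deepTools, and the study's methods, reads were trimmed with Trim Galore and aligned with Bowtie2 to mm10 and hg38 together, uniquely mapped reads were kept, and peaks were called by the authors with MACS2 in each library separately. The deposited fold enrichment is a ratio of summit pileup to local background. The deposited p-values and q-values are −log10 values. The deposited score repeats the q-value on a whole-number scale, and it did not enter any comparison. The number of reads is not given in the lists, and the summit pileup (lowest 8 at a constitutive site) limits precision.

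A whole-number summit pileup and its local background were solved from the fold enrichment and the Poisson p-value, which succeeded for 100% of lines within 0.01 in −log10 p. The lowest background of a list, from 1.42 to 2.02, was used as its depth. Regions were merged with bedtools 2.31.1. The core motif matrix (19 columns) was learned from 2000 wild-type brain peaks outside the constitutive sites, of which 1936 contributed, and was scored within 100 bp of a summit against GRCm38 (RefSeq). Genes came from GENCODE M21 basic. Scripts were tested on simulated data. Shares carry Wilson and differences Newcombe 95% intervals, with no p. An exact sign-flip permutation test over 3 tissues cannot give a p below 0.25, so none is reported.

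Named sites were chosen by rule: the 6 constitutive sites outside chromosome 18 with the best worst rank by pileup, the 3 with the smallest lowest −log10 q, the 3 sites of 5 lists with the best worst rank, the 3 lowest and 3 highest mean ratios among sites of 1 sign in 3 tissues, and the strongest at listed loci and gene promoters. Examples of tissue differences were added after values were seen. The sites and lists were chosen with earlier results of these data known. Alternatives were stricter peaks, summits within 100 bp, lists of equal length, autosomes only, each list left out, other motif settings, a 2 kb promoter and median centering. Computation used scipy 1.17.1, pandas 2.3.3 and numpy 2.4.6 under Python 3.11.15, with matplotlib 3.10.9 for plots.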

Additional observations from a re-analysis of the deposited data

Results flagged for a closer look

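At constitutive sites the log2 mutant-to-wild-type pileup ratio had a median of 0.21 in brain, but of -0.25 in heart and -0.12 in lung. On this scale brain had the opposite sign to the other tissues, but the sign of lung depended on the scaling. By deposited fold enrichment lung had a median of 1.54, and the lung median over all sites with both peaks was -0.36, below that of the constitutive sites, as it was in brain (-0.04). The difference between tissues was not tested, as each tissue and genotype had a single library.

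The local background recovered at constitutive sites drew attention in a quantity that the comparisons of pileup do not use. In wild-type lung the median reached 5.95 times that of the genome, and the next highest list had 1.42 times. Which control library stood behind each list was not given in the sources used here.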

How the results depend on the processing

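The number of constitutive sites was 10442, and 10072 with a −log10 q of at least 5, 10099 with all summits within 100 bp of their median and 10342 on autosomes. When every list was cut to the 11515 regions of the shortest by −log10 q, 5734 sites carried all 6. Leaving out each list in turn gave between 10447 and 17632, the highest without mutant heart. The core motif difference stayed between 3.35 and 26.0 points in 5 alternatives, the lowest against sites of 5 lists. The upstream motif difference was negative in 6 of 7 alternatives and turned to 0.309 points in the mirrored window, the control for it. The promoter difference rose from 0.386 to 3.34 points with a −log10 q of at least 5. Convergent pairs were 5.76 points commoner at a core motif p of 1e-05, and the difference turned to -7.93 points at 5 to 20 kb. With each tissue centered on the median of all sites, the counts past 2-fold moved from 736 to 318 lower and from 17 to 90 higher in heart, and from 614 to 234 lower and from 5 to 46 higher in lung. The cause was not tested. The mean ratio difference tied to the upstream motif was negative in 5 alternatives, from -0.25 to -0.06, although lung turned to 0.13 by fold enrichment, and was -0.02 in the mirrored window, its control. Alternatives by repeats, promoters, the heart, pileup deciles of the ratio and sites of 5 lists were chosen after seeing the data. The genotypes were paired by tissue only, as single libraries, which gave the mean differences over 3 tissues. No pairing within a tissue was possible, because each group held 1 library and no label numbers a replicate. Heart pileups were the lowest, so differences at heart peaks are the least precise.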
